A study of Mus musculus with 9 samples.

Results

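The genes of the NF-kB transcription factors, their inhibitors and the kinase that releases them were followed through 9 chromatin peak lists from mouse bone marrow. The 10 genes were taken from a fixed list of names, out of 21887 protein-coding genes. They were 5 factor genes (Nfkb1, Nfkb2, Rela, Relb and Rel), 4 inhibitor genes (Nfkbia, Nfkbib, Nfkbie and Tnfaip3) and the kinase gene Ikbkb. Measured values were not part of the rule, but earlier results of these data were known when the genes were chosen. Each gene was read over its annotated span plus 20 kb on each side. All mice were C57BL/6, 12 weeks old and homozygous for a Dek gene flanked by loxP sites (Dekfl/fl). Control mice (fl) had no Cre, and in the others (cKO) Tie2-Cre, which acts in the endothelial and blood lineages, deletes Dek. CUT&Tag, in which an antibody-tethered transposase tags the DNA near its target, was done for DEK in 3 fl libraries of haematopoietic stem cells (HSC, about 20000 cells). H3K9ac was done in HSC and H3K27ac and H3K4me3 in the broader LSK stem and progenitor gate (about 50000 cells), with 1 fl and 1 cKO library for each mark. The labels give neither the number of mice behind a library nor any pooling.

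NF-kB factors are dimers of proteins that share a DNA-binding domain. In resting cells the IkB proteins, encoded by Nfkbia, Nfkbib and Nfkbie, hold them in the cytoplasm, until the IkB kinase, whose catalytic beta subunit Ikbkb encodes, marks the inhibitor for destruction. Nfkbia and Tnfaip3 are themselves switched on by NF-kB and close the loop, and in blood stem cells the pathway is known for its part in inflammatory signalling and survival. H3K4me3 marks the starts of active or poised genes, and H3K27ac and H3K9ac mark active starts and enhancers.

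All 10 genes carried H3K4me3 at the start in both genotypes, whereas H3K27ac lay at the starts of 5 of them in fl and of all 10 in cKO. Nfkb2, Rela, Rel, Nfkbib and Tnfaip3 had the acetylation peak in both lists, and Nfkb1, Relb, Nfkbia, Nfkbie and Ikbkb had it in cKO only. Over all protein-coding genes, 42.9% had H3K4me3 in both lists, 22.6% had H3K27ac in fl and a further 21.7% had it in cKO only. Of the genes with H3K4me3 in both lists 33.0% had H3K27ac in cKO only, so the split of the 10 genes is close to that of marked genes in general. A peak was counted at the start when it came within 1 kb of an annotated start. For Nfkb1, Relb and Ikbkb, whose start the promoter table used here does not hold, either annotated end was allowed. The cKO H3K27ac list is longer than the fl list (16331 against 10494 peaks), and with 1 library per genotype no difference between fl and cKO has a replicate check or a test.

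The promoter sequences lie under or beside these peaks, and they are printed for genes that carry a match to the DNA element that NF-kB itself binds. They run 5′ to 3′ from 250 bases before to 50 after the start (RefSeq, GRCm38.p6), for 5 of the 7 genes whose sequence the table holds. Capitals mark matches on either strand to the kappaB consensus of 10 bases, which is GGG, a purine, any 2 bases, a pair of pyrimidines and CC.
Nfkb2, first start (chr19:46304487-46304786, plus strand): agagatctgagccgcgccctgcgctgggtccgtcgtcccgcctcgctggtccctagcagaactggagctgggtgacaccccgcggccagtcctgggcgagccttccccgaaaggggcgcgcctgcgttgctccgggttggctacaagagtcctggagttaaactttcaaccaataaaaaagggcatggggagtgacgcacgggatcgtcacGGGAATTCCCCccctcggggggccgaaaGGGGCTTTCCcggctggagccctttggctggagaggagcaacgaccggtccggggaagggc
Nfkb2, second start (chr19:46305445-46305744, plus strand): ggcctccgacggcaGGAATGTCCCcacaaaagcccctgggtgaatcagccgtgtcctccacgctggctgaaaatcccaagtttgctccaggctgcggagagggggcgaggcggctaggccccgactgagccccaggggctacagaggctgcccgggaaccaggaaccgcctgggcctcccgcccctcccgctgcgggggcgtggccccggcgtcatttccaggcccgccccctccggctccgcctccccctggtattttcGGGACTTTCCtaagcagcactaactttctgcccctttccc
Rel (chr11:23770920-23771219, minus strand): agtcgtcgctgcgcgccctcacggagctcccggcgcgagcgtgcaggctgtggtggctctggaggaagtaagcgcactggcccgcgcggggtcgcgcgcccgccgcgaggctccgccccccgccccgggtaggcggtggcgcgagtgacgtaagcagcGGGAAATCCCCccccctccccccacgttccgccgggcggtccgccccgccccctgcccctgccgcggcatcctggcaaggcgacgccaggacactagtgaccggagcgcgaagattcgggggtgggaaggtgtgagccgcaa
Nfkbia (chr12:55492598-55492897, minus strand): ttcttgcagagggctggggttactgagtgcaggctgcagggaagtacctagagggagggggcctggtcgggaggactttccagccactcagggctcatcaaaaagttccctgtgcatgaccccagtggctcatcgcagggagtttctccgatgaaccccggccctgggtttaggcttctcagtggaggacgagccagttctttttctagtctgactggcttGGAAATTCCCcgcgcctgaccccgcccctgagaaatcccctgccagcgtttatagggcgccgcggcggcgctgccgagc
Nfkbie (chr17:45555450-45555749, plus strand): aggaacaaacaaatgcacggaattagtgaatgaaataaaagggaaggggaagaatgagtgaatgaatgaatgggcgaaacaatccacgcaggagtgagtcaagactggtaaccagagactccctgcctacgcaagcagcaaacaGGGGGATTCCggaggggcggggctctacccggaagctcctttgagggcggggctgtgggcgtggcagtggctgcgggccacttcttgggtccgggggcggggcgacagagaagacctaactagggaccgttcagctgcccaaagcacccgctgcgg
Tnfaip3, outer start (chr10:19015361-19015660, minus strand): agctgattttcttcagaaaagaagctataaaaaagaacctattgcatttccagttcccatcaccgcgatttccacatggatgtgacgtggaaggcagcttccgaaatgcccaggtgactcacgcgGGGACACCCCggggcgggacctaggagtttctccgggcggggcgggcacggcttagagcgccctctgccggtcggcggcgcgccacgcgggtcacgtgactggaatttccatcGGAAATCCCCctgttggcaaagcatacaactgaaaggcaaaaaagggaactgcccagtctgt

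Of these 7 genes, 5 held at least 1 kappaB match in such a window, against 10.5% of the 17492 protein-coding genes with a window. Rela and Nfkbib held none. The first Nfkb2 window held 4 matches, of which 3 overlap in a stretch that begins 39 bases upstream of the start and 1 begins 11 bases upstream. The second held 2, of which 1 begins 236 bases upstream and 1 lies 10 bases inside the gene, where it is also the 1 match of the third, overlapping window. Rel held 3 overlapping matches that began 92 and 91 bases upstream of the start. Nfkbia held 1, which began 29 bases upstream, Nfkbie 1, which began 106 bases upstream, and the outer start of Tnfaip3 held 3, of which 2 are both strands of 1 site that began 125 bases upstream and 1 began 12 bases upstream. The windows had 47.0% to 75.0% G and C and 6 to 42 CG pairs, and the medians over all windows of protein-coding genes were 56.3% and 13. Rel had the highest and the inner Tnfaip3 start the lowest of both. A match describes the letters and does not show that a factor was bound.

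The peak lists give each peak's own values, which are the authors'. Fold enrichment and −log10 q compare a peak with the background of its own library, and neither was compared between libraries. The percent rank places a peak within its own list by −log10 p, with 0 for the strongest and 100 for the weakest. The lists carry no read counts, so depth is unknown. The lists held 2054, 2111 and 6146 usable peaks for DEK, 2172 (fl) and 3431 (cKO) for H3K9ac, and 10514 (fl) and 10159 (cKO) for H3K4me3. Markers were checked at the start. Of 14 stem and progenitor marker genes, 11 had fl H3K4me3 and 2 fl H3K27ac, and Ly6a, which encodes the Sca-1 antigen of the gate, had no fl H3K4me3 peak, nor had Slamf1 and Hlf. The fl H3K4me3 list held 2 of 10 myeloid, 2 of 6 B cell, 0 of 6 T cell, 3 of 8 erythroid, 1 of 6 endothelial and 0 of 7 non-blood marker genes. The fl H3K27ac list held 0, 0, 1 (Lck), 2, 0 and 0 of them, and the cKO list 9 of the stem and progenitor genes and 0, 1, 1, 2, 1 and 3 of the others, in the same order. Over all protein-coding genes, 22.6% had H3K27ac at the start in fl and a further 21.7% in cKO only. The 7 non-blood genes had no H3K4me3 start peak in either list, so cKO H3K27ac peaks also lay at starts without H3K4me3. Whether these markers have a part in the differences below was not tested.

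**Figure D1:**
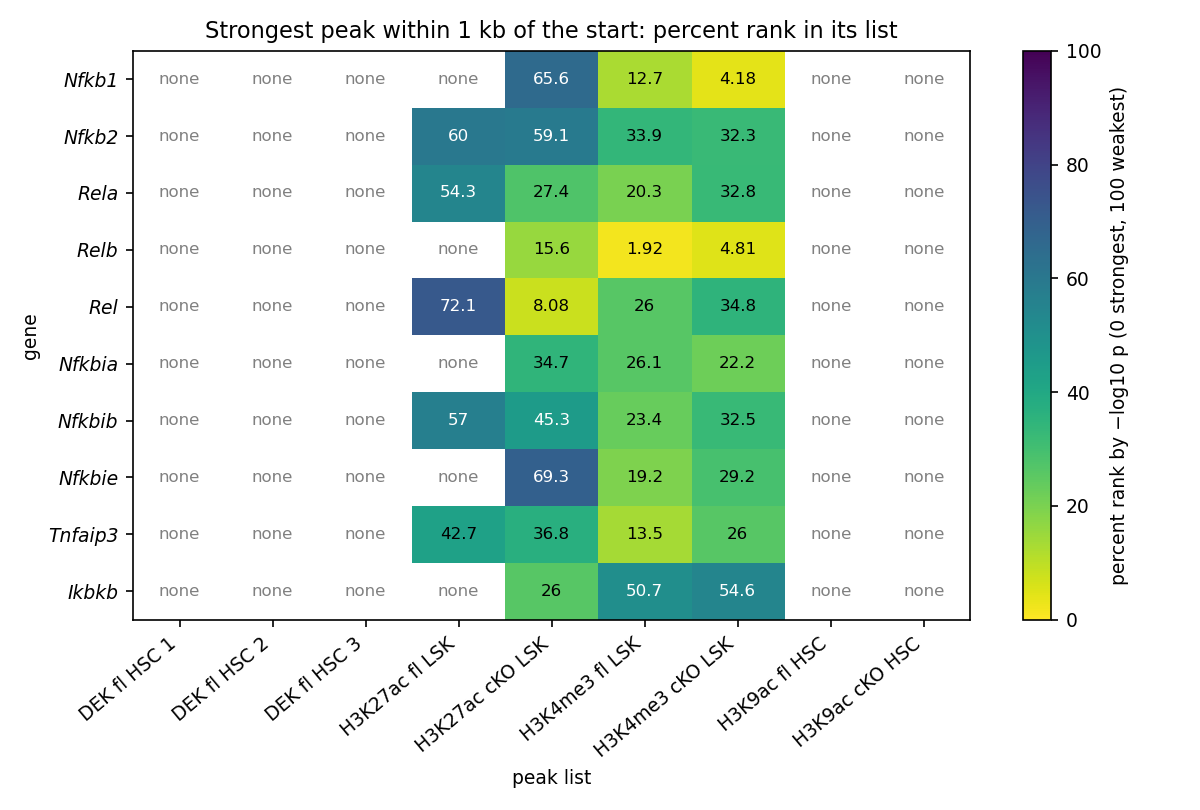
Percent rank (0 strongest, 100 weakest, colour and number) of the strongest peak within 1 kb of the start, for the 10 genes (rows) in the 9 peak lists (columns), with "none" where no peak lies there. The H3K4me3 columns are filled for all 10 genes, the fl H3K27ac column for 5, the cKO H3K27ac column for 10, and the DEK and H3K9ac columns for none.

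H3K4me3 was at the start of 10 of 10 genes in both lists, against 42.9% of all protein-coding genes. Relb, which pairs with the Nfkb2 product in the slower non-canonical arm of the pathway, had the strongest of these peaks in fl, with rank 203 of 10514 (fold 14.7, −log10 q 87.2) and 490 of 10159 in cKO. Nfkb1, which encodes the p50 precursor, had the strongest in cKO, at a percent rank of 4.18 (fold 12.0, −log10 q 59.5), and 12.7 in fl. Ikbkb had the weakest, at percent ranks of 50.7 in fl and 54.6 in cKO, so that the kinase gene stood near the middle of both lists and the other 9 above it.

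The inhibitor genes lay between these. Tnfaip3, which encodes the ubiquitin-editing enzyme A20, had percent ranks of 13.5 in fl and 26.0 in cKO. Nfkbie stood at 19.2 and 29.2, Nfkbib at 23.4 and 32.5, and Nfkbia, which encodes the main IkB protein, at 26.1 and 22.2. Over the 10 genes the median percent rank was 21.9 in fl and 30.8 in cKO, and over all H3K4me3 start peaks 45.2 and 45.6.

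The H3K4me3 peaks were broad at several of these starts. Nfkbie had the broadest, 2071 bp in fl and 1886 bp in cKO, and 1.10% and 1.64% of all H3K4me3 start peaks were wider. Nfkb2 followed with 1660 and 1571 bp, where the single peak takes in all 3 of its annotated starts, and Rel with 1517 and 1591 bp. Nfkbib (637 and 743 bp) and Ikbkb (662 and 517 bp) were the narrowest. The median width was 1148.5 bp in fl and 1139 bp in cKO, and over all start peaks it was 820 and 780 bp. The peak was wider in cKO at 4 of the 10 genes (Rela, Rel, Nfkbia and Nfkbib), against 35.1% of the genes with H3K4me3 in both lists.

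Most H3K4me3 peaks lay to the gene side of the start. In fl the summit was inside the gene by 148 bp at Nfkbia, 198 at Nfkbie, 202 at Nfkbib, 295 at Rel and 361 at Tnfaip3. At Nfkb1 it lay 1007 bp inside the annotated end that was used as the start. At Rela the summit lay 222 bp before the annotated start in fl and 215 bp before it in cKO. At Nfkb2, with its 3 starts, the fl summit lay 114 bp before the second and the cKO summit 41 bp inside the first. At Tnfaip3 the fl peak began 23 bp inside the gene, so that the kappaB matches upstream of the start lay outside it.

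**Figure D2:**
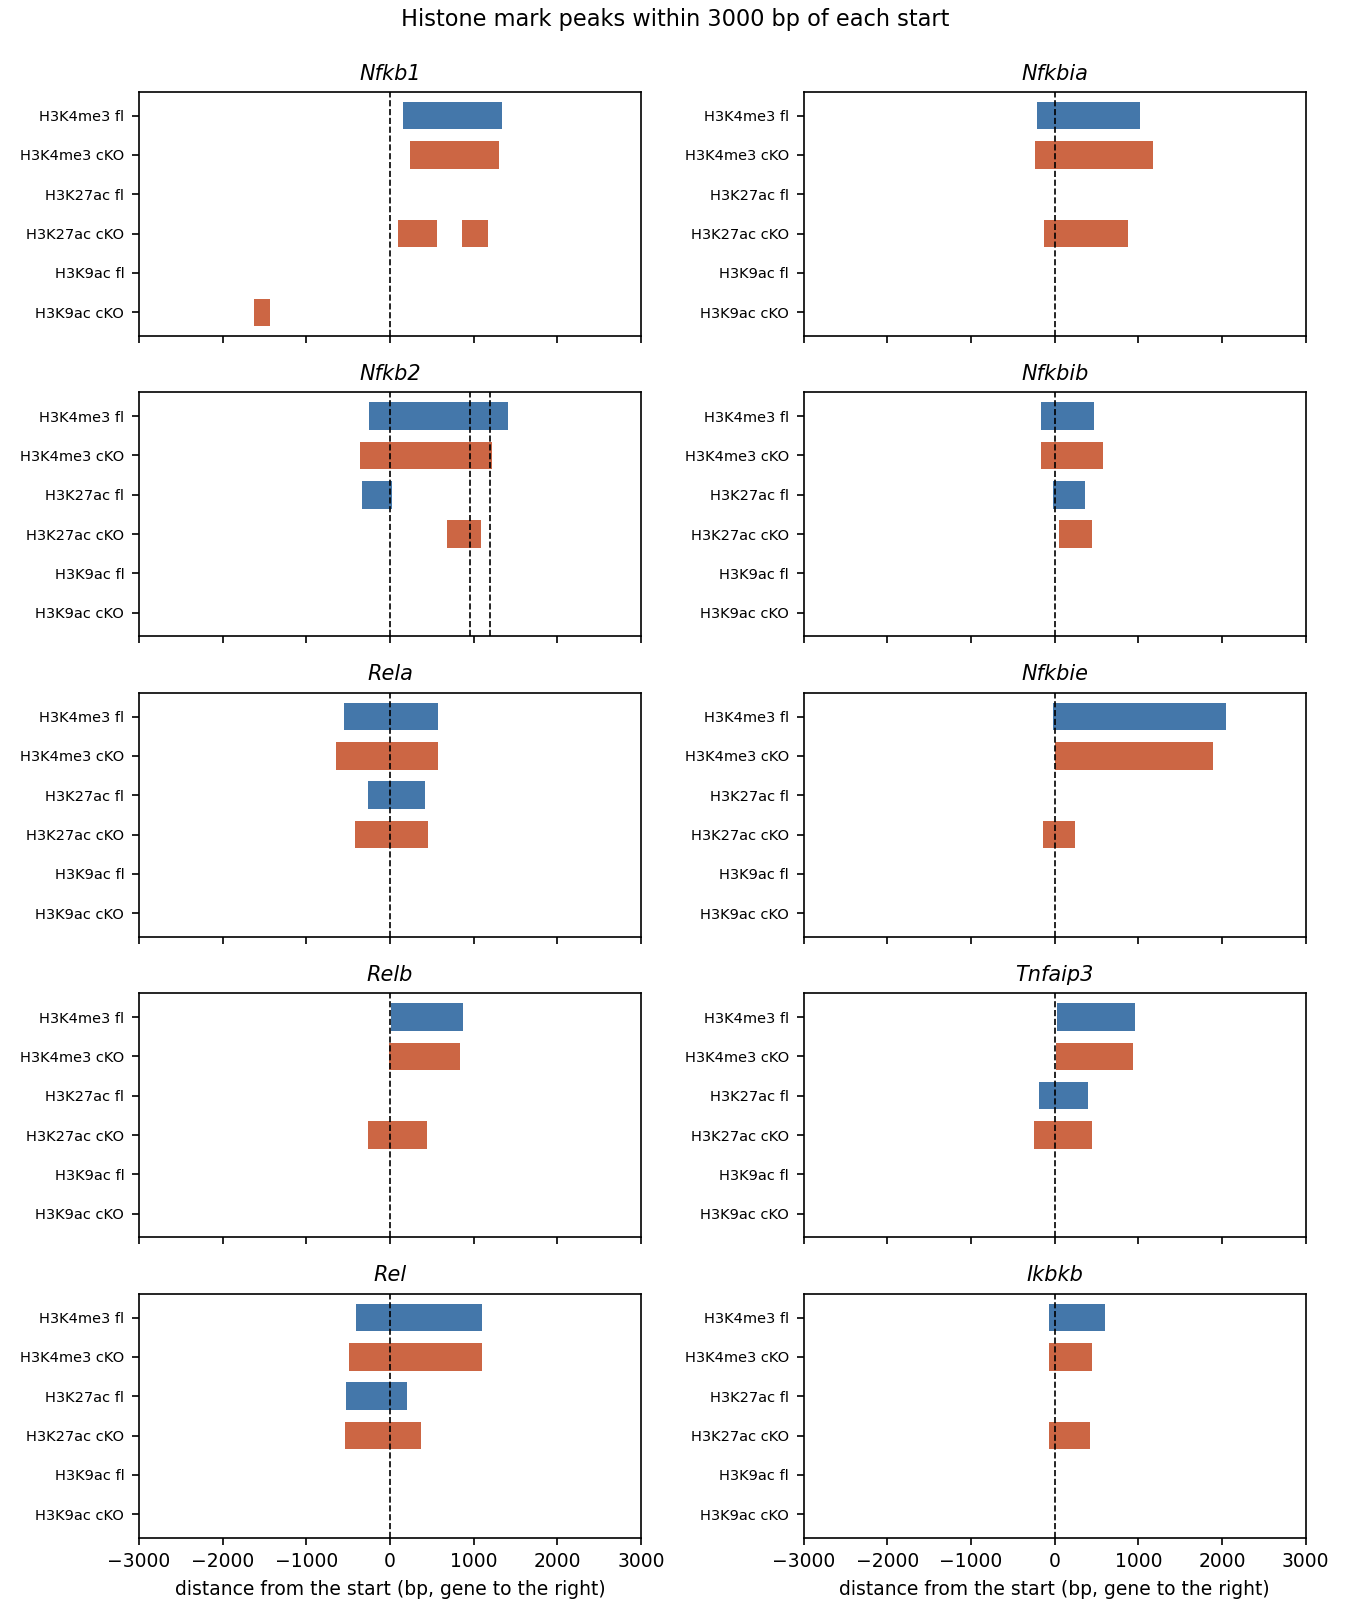
Peaks within 3000 bp of the start of each gene, drawn as bars by mark and genotype (blue fl, orange cKO); the horizontal axis is the distance from the start in bp with the gene to the right, and dashed lines are annotated starts (the first for Nfkb2 and the outer one for Tnfaip3 at 0, and for Nfkb1, Relb and Ikbkb the annotated end that carries H3K4me3). H3K4me3 bars of fl and cKO overlap at all 10 genes, fl H3K27ac bars are missing at 5, and at Nfkb2 the H3K27ac bars of fl and cKO lie at different starts.

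H3K27ac was then compared at the same starts. In the fl list 5 of 10 genes had it, against 22.6% of all protein-coding genes, and 5 of 10 had it in cKO only, against 21.7%. Genes with H3K4me3 in both lists form the closer background, because all 10 genes have that mark. Among those 9399 genes 33.0% had H3K27ac in cKO only, 48.9% in both lists and 0.532% in fl only, beside 5, 5 and 0 of the 10. None of the 10 lacked the mark in both lists, while the rest of those 9399 genes did. With only 10 genes these counts are close to the shares of those 9399 genes, though above those of all protein-coding genes. Nothing particular to the 10 genes is read from them. In sorted bulk cells, a mark present in more cells and a mark that is stronger in each cell cannot be told apart.

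Among the factor genes, Rela, Rel and Nfkb2 were acetylated in both lists. Rel, which encodes c-Rel, had a fl peak of 729 bp (fold 6.94, −log10 q 7.82, percent rank 72.1) and a cKO peak of 907 bp (fold 13.5, −log10 q 45.6, percent rank 8.08). That was the highest rank of the 10 genes in the cKO list and the lowest of the 5 with a fl peak. Rela, which encodes p65, had a fl peak of 685 bp (percent rank 54.3, fold 8.13) and a cKO peak of 874 bp (percent rank 27.4, fold 11.1).

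At Nfkb2, which encodes the p52 precursor, the 2 H3K27ac peaks did not overlap. The fl peak (chromosome 19, 46304405 to 46304766, fold 7.16, −log10 q 9.18) covered 280 of the 300 bases of the first promoter window and none of the others. The cKO peak (46305423 to 46305830, fold 7.55, −log10 q 15.1) covered all 300 bases of the second, 151 of the third and none of the first. Nfkb2 was therefore counted as marked in both lists by gene, but as 1 fl-only and 1 cKO-only region by place. The H3K4me3 peaks covered 297 and 300 bases of the first window and all 300 of the second, in fl and cKO. An annotated end of the non-coding gene 4833438C02Rik, which may or may not be its start, lies 66 bp from a start of Nfkb2. These peaks may therefore belong to either gene.

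Relb and Nfkb1 had no fl H3K27ac peak at the start. At Relb the cKO peak (chromosome 7, 19628995 to 19629704, 710 bp) had rank 2556 of 16331, fold 14.5 and −log10 q 35.1. A further cKO-only peak lay inside Relb (19619372 to 19619741, fold 7.17, percent rank 87.0). Nfkb1 had 2 cKO peaks near the end that carries H3K4me3, of 462 bp (chromosome 3, 135691410 to 135691871, fold 8.35, −log10 q 13.2) and 313 bp (fold 7.94, −log10 q 12.1). Both stood low in the list, at percent ranks of 65.6 and 69.5.

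Of the inhibitor genes, Nfkbib and Tnfaip3 were acetylated in both lists and Nfkbia and Nfkbie in cKO only. Tnfaip3 had a fl peak of 589 bp (percent rank 42.7, fold 8.98, −log10 q 12.0), the best ranked of the 5 fl start peaks, and a cKO peak of 699 bp (percent rank 36.8, fold 11.0). The cKO peak covered all 300 bases of its outer promoter window and the fl peak 236. Its inner start, at 19011963 on chromosome 10, had no histone peak in its window. Nfkbib, which encodes IkB beta, had peaks of 377 and 397 bp at percent ranks of 57.0 and 45.3. The start of Sirt2, a deacetylase gene that runs the other way, lies 108 bp from that of Nfkbib, so these peaks may belong to either gene, although neither H3K27ac peak reaches the annotated Sirt2 start.

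Nfkbia had the widest cKO start peak of the 10 genes, 1001 bp (chromosome 12, 55491771 to 55492771, fold 10.2, −log10 q 24.3, percent rank 34.7), and no H3K27ac peak in its fl window. The peak covered 174 of the 300 promoter bases printed above. The windows of Nfkbia and Tnfaip3 held no other protein-coding gene and no peak beyond those at the start. An annotated end of the non-coding gene Gm36634 lies 648 bp from the Nfkbia start, so the Nfkbia peaks may belong to either gene. Nfkbie, which encodes IkB epsilon, had a cKO peak of 392 bp (chromosome 17, 45555556 to 45555947, −log10 q 12.2) at a percent rank of 69.3, the weakest of the 10. Ikbkb had a cKO peak of 502 bp (chromosome 8, 22706162 to 22706663, fold 14.0, −log10 q 28.4, percent rank 26.0) and no fl peak at that end.

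Over the whole cKO list, weak H3K27ac start peaks lacked a fl counterpart more often than strong ones. The 10 genes were therefore set beside all cKO H3K27ac start peaks of genes with H3K4me3 in both lists, by deciles of the list (1 strongest, 10 weakest). Relb lay in decile 2, where 16.1% of 1020 such peaks had no overlapping fl peak. Ikbkb lay in decile 3 (23.4% of 1173) and Nfkbia in decile 4 (33.7% of 1145). Nfkb1 and Nfkbie lay in decile 7, where 70.4% of 619 had none, and the cKO peak of Nfkb2 in decile 6 (54.9% of 855). Rel lay in decile 1 (12.1% of 224), Rela in 3, Tnfaip3 in 4 and Nfkbib in 5 (45.8% of 981), and their peaks overlapped a fl peak. The cKO-only genes thus fell into a strong set (Relb, Ikbkb and Nfkbia) and a pair, Nfkb1 and Nfkbie, at ranks where most start peaks of the cKO list have no fl counterpart.

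**Figure D3:**
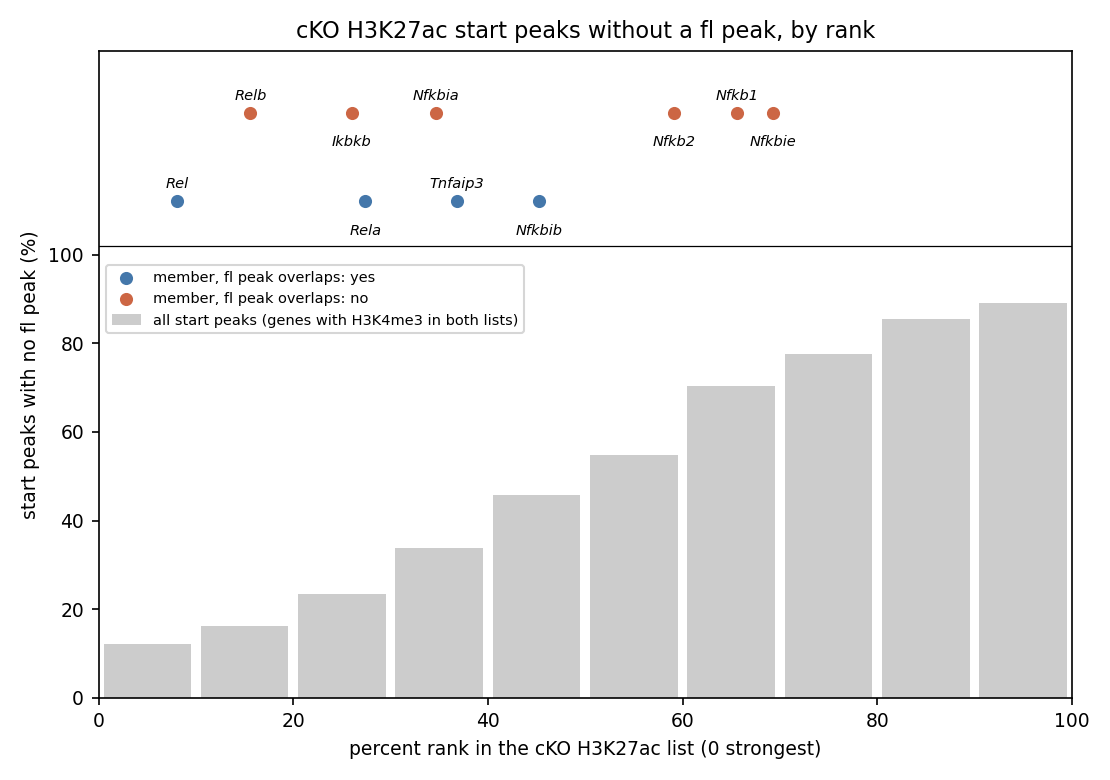
Grey bars give, for each decile of the cKO H3K27ac list (horizontal axis, percent rank), the percent of start peaks with no overlapping fl peak among genes with H3K4me3 in both lists; points above the line place the 10 genes' strongest cKO start peaks on the same horizontal axis, orange without and blue with an overlapping fl peak, and their height carries no value. The bars go from 12.1% in the strongest decile to 89.0% in the weakest, and Relb is the best ranked of the 6 orange points, at a percent rank of 15.6.

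When only the 10494 strongest cKO peaks were kept, as many as the fl list holds, 3 of the 10 genes were cKO only (Relb, Nfkbia and Ikbkb), 5 were in both lists and 0 in fl only. Nfkb1 and Nfkbie then had no H3K27ac peak in either list. Over the genes with H3K4me3 in both lists, 22.7% were cKO only with lists of equal length. At a −log10 q of at least 5 all 10 genes kept their class. At all 5 genes with H3K27ac in both lists the cKO peak was the wider one, which also held for 94.3% of all such genes.

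Beyond the starts, the windows held few places that were not another gene's start. Joined into regions by overlap of at least 1 bp, the 10 windows held 24 H3K27ac regions: 9 shared, 14 cKO only and 1 fl only. Over the whole lists 51.5% of regions were shared, 40.9% cKO only and 7.62% fl only. Of the 14 cKO-only regions 7 lay at the 10 genes' starts, 2 at a start of another gene, 3 inside another gene, 1 inside Relb and 1 between genes. The 1 between genes lay beyond the far end of Nfkb1 (chromosome 3, 135577035 to 135577337; fold 5.74, percent rank 97.8).

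Sipa1, a neighbour of Rela, held 2 cKO-only peaks inside the gene and 1 at its start, of which the strongest (chromosome 19, 5660702 to 5661140) had fold 10.7 and −log10 q 25.7. The other cKO-only start was that of Tmem151b beside Nfkbie (percent rank 80.9). Psd, beside Nfkb2, held 1 inside the gene (fold 8.09, percent rank 77.8). The shared regions at other genes' starts were those of Fbxl15 beside Nfkb2, Clasrp beside Relb, Slc35b2 and Hsp90ab1 beside Nfkbie, and Polb beside Ikbkb. At Relb, Ikbkb and Nfkbie a neighbour's start was thus acetylated in both lists while the gene's own start had a peak in cKO only. The Clasrp peaks had percent ranks of 55.6 in fl and 14.0 in cKO, and the Polb peaks 51.4 and 22.0.

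H3K4me3 formed 20 regions in the windows, 17 shared, 3 fl only and 0 cKO only, beside 84.2% shared, 9.65% fl only and 6.15% cKO only over the whole lists. The 3 fl-only peaks were weak. One lay inside Ikbkb (chromosome 8, 22701270 to 22701634, fold 6.17, percent rank 88.2), one inside Sipa1 (fold 3.80, percent rank 88.9) and one between Rela and Sipa1 (fold 5.46, percent rank 96.0). In the window of Nfkbie, 1 shared peak lay over the start of Hsp90ab1, a heat shock protein gene, and an annotated end of the non-coding gene Gm35399. It had rank 2 of the fl list and rank 1 of the cKO list.

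H3K9ac in HSC was at the start of 0 of 10 genes in either list, against 1.35% of all protein-coding genes. In the windows the cKO list had a peak at 2 of 10 genes and the fl list at 0, against 13.3% and 8.76% of all genes. Over the whole lists only 323 of 5277 H3K9ac regions (6.12%) were shared, 58.9% were cKO only and 35.0% fl only. The 2 lists thus had few places in common, and nothing particular to the 10 genes is read from the H3K9ac counts. The Nfkb1 peak (chromosome 3, 135693401 to 135693596, 196 bp) had its summit 1531 bp outside the annotated end (fold 5.31, −log10 q 4.37). The Ikbkb peak (chromosome 8, 22665030 to 22665226, 197 bp) lay inside the gene (fold 4.66, −log10 q 3.95). Neither overlapped an H3K27ac or H3K4me3 peak.

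DEK peaks were then read at the same genes. At the start 0 of 10 genes had one in any of the 3 fl HSC libraries, against 0.827% of all protein-coding genes, and 0 of 10 had one inside the gene, against 12.3%. A window held a DEK peak at 2 of 10 genes, both in replicate 3, against 23.8% of all protein-coding genes for any library and 15.8% for replicate 3. These counts are near the shares of all genes, and nothing particular to the 10 genes is read from them. One lay inside Pus10 (chromosome 11, 23724677 to 23724887, fold 6.95, −log10 q 7.30), 12.0 kb from Rel. The other lay 16.2 kb from Nfkb1 (chromosome 3, 135708178 to 135708356, fold 5.84, −log10 q 4.64). Peak names in the replicate 3 list carry a Flag stem and those of the other DEK lists a DeK stem. The label of replicate 3 says DEK and was followed, but its antibody is therefore not certain, and both peaks may not be DEK peaks. Without replicate 3 the count was 0. Neither peak was matched by a DEK peak of replicate 1 or 2 in the same window.

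Outside the windows the distance to the nearest DEK peak differed widely between the libraries. The nearest peak to Nfkbia was 175, 582 and 63.8 kb away in replicates 1 to 3, and that to Rela 161, 809 and 95.6 kb. For Relb the distances were 60.7, 139 and 43.2 kb. Of the 5 genes with H3K27ac in cKO only, the closest DEK peak of any library lay 16.2 kb from Nfkb1, 29.4 kb from Ikbkb, 32.6 kb from Nfkbie, 43.2 kb from Relb and 63.8 kb from Nfkbia, each in replicate 3 and so under the same doubt about its antibody. For the genes with H3K27ac in both lists it lay 12.0 kb from Rel, 30.0 kb from Nfkb2 and 95.6 kb from Rela, in replicate 3. It lay 40.2 kb from Tnfaip3 and 43.6 kb from Nfkbib, in replicate 2. Replicate 3 also has the most peaks, 6146 against 2054 and 2111 in replicates 1 and 2. No such distances over all genes stand beside these. A link between these distances and the H3K27ac classes was not tested. DEK libraries of cKO cells were not analysed here.

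The rest of the pathway was read from a list of 101 other genes in 4 roles, all of which were found. H3K4me3 was at the start in both lists for 65 of them and H3K27ac for 41, while 15 had H3K27ac in cKO only and 1 in fl only. Over all protein-coding genes, 42.9% had H3K4me3 in both lists. H3K27ac was in both lists for 4874 of the 21887 genes, in cKO only for 21.7% and in fl only for 79. Among the 65 with H3K4me3 in both lists, H3K27ac was in both for 39, in cKO only for 11, in fl only for 1 and in neither for 14. The background above is 48.9%, 33.0% and 0.532% for the first 3 classes, and the rest of the 9399 background genes had it in neither list. With lists of equal length 8 of the 101 were cKO only. The 22.7% given above for lists of equal length covers only genes with H3K4me3 in both lists, so it is not a background for all 101.

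Differences between the roles were not tested, and the shares of all protein-coding genes above are the background of each role. Of 25 adaptors and kinases 22 had H3K4me3 in both lists, 14 had H3K27ac in both and 6 in cKO only, led by Tab2 (−log10 q 23.4), Irak1 (23.0) and Tradd (16.4), which link receptors to the IkB kinase. Chuk, which encodes the alpha subunit of that kinase, had H3K27ac in both lists, and Ikbkg, which encodes its regulatory subunit, in neither. Ticam1, a Toll-like receptor adaptor, had H3K4me3 in fl only (−log10 q 5.77).

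Of 26 inhibitors and ubiquitin editors 21 had H3K4me3 and 18 H3K27ac in both lists. Bcl3, an atypical IkB gene, and Pdlim2, which encodes a ligase for p65, had H3K27ac in cKO only (−log10 q 27.3 and 12.5). Neither had H3K4me3 at the start in either list, and with lists of equal length Pdlim2 had no H3K27ac peak there. Birc3, which encodes a ubiquitin ligase of the non-canonical arm, was the 1 gene with H3K27ac in fl only (−log10 q 8.74). Tnip1, whose product works with A20, had H3K4me3 in cKO only (−log10 q 7.20). Tax1bp1, another A20 partner, was the 1 gene of this role with an H3K9ac start peak, in cKO only (−log10 q 1.70). Over all protein-coding genes 1.35% had such a peak in either list.

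Of 20 receptors and ligands 8 had H3K4me3 and 3 (Tnfrsf1b, Ltbr and Il1rap) had H3K27ac in both lists. The cKO-only genes were Il1r1, the interleukin-1 receptor (−log10 q 14.1), Tlr2, a Toll-like receptor (14.1), and Tnfsf11 (8.02). Tnfsf11 had no H3K4me3 at the start in either list, and with lists of equal length it had no H3K27ac peak there. Tnf itself had H3K4me3 in both lists and no H3K27ac peak. Of 30 target genes 14 had H3K4me3 and 6 H3K27ac in both lists, and 4 had H3K27ac in cKO only, led by Ier2 (26.3), Xiap (14.8) and Cxcl12 (9.13). Cxcl12 had no H3K4me3 at the start in either list, and with lists of equal length it had no H3K27ac peak there. Ccnd1 had H3K4me3 in cKO only (9.76). A DEK peak lay at the start of 2 of the 101 genes, Lta and Cd44, in 1 library each, against 0.827% of all genes for any library, and at that of 0 in at least 2 libraries, against 0.0366%.

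**Figure D4:**
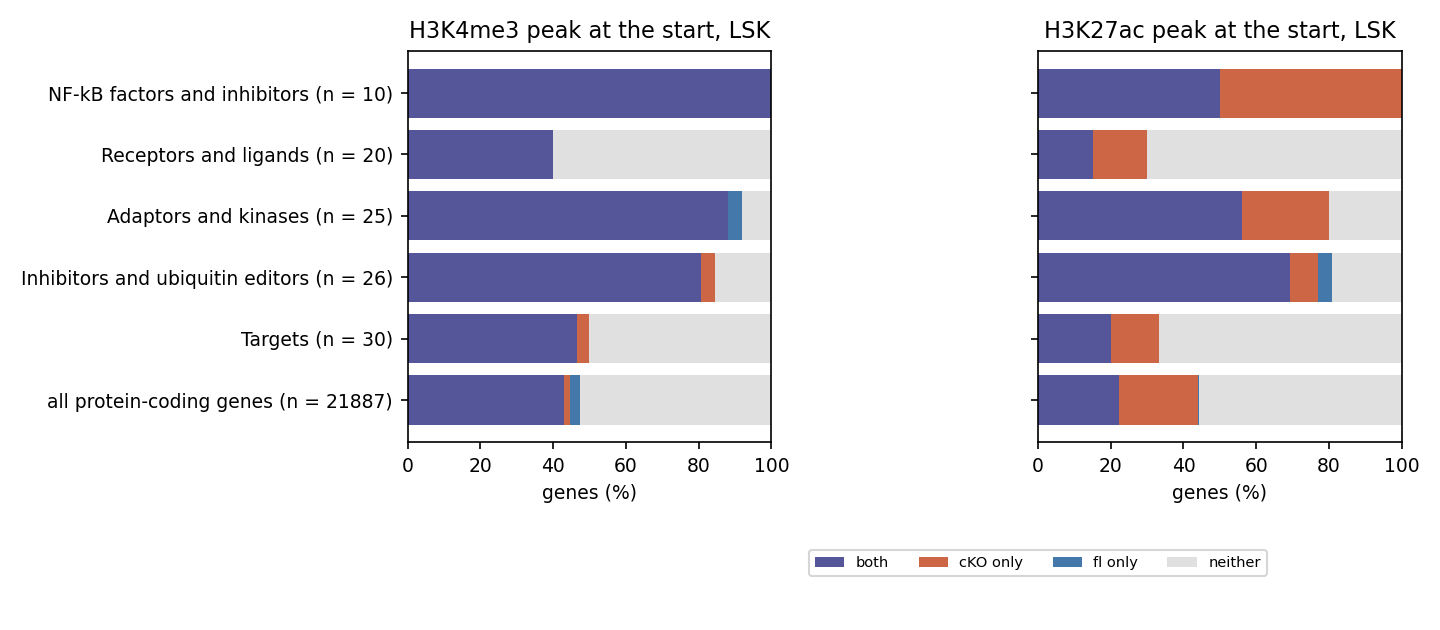
Percent of genes (horizontal axis) with a peak at the start in both lists, in cKO only, in fl only or in neither, for H3K4me3 (left) and H3K27ac (right) in LSK cells, for the 10 NF-kB genes, 4 role groups of other pathway genes and all protein-coding genes. The top bar is filled by H3K4me3 in both lists for 10 of 10 genes and split 5 to 5 for H3K27ac, and H3K4me3 in both lists fills 22 of 25 adaptors and 21 of 26 inhibitors, 8 of 20 receptors and 14 of 30 targets.

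The 10 genes showed 2 patterns over the 6 histone lists. The pattern of Nfkb2, Rela, Rel, Nfkbib and Tnfaip3 (H3K4me3 and H3K27ac in both, no H3K9ac) was that of 4503 protein-coding genes (20.6%) and of 38 of the 101 pathway genes, among them Chuk, Map3k14, Cyld, Birc2 and Irf1. The pattern of Nfkb1, Relb, Nfkbia, Nfkbie and Ikbkb (H3K27ac in cKO only) was that of 3040 genes (13.9%) and of 11 pathway genes: Il1r1, Tlr2, Irak1, Irak2, Traf3, Tradd, Tab2, Tab3, Xiap, Junb and Ier2. With lists of equal length Irak2, Traf3, Tab3 and Junb, like Nfkb1 and Nfkbie, had H3K27ac at the start in neither list.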

How the data were processed

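The 9 CUT&Tag libraries fall into 7 groups, and the authors deposited 1 peak list per library. The tools were Bowtie2, MACS2 and Picard, on mm10, per the submitters' processing notes. No version, threshold or control for peak calling is given in these sources. The deposited values are, per peak, a score, a fold enrichment (a ratio over the caller's background), a −log10 p and a −log10 q (p-value and q-value), all the authors'. Chromosomes 1 to 19, X and Y were used, which left out 16 mitochondrial DEK rows. Another 12 DEK rows broke the format of their list (a missing strand mark, a score off its rule, a q out of step with its p against 6 neighbours on each side, or coordinate order) and were left out by a rule made after such rows had been seen; 0 of them lay in the windows used.

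Gene spans came from RefSeq for GRCm38.p6 (the mm10 coordinates) and starts from its promoter table, which holds 17492 of the 21887 protein-coding genes and 7 of the 10 described; for the others either annotated end served. Overlaps were counted at 1 bp, and coordinates count from 1. No test was run, since each genotype and mark has 1 library; counts stand beside the same count over all genes. The overlap code was checked on simulated peaks. All 10 genes are named, and of the other pathway genes up to 3 per role, mark and direction with the highest −log10 q, beside those of the same pattern; Tnf, Ikbkg, Tax1bp1, Lta, Cd44 and the H3K27ac receptors were named after their values were seen. The genes and lists were chosen with earlier results of these data known. Alternatives were the window, the distance to the start, a −log10 q of at least 5, lists of equal length, the overlap, each DEK replicate left out and the irregular rows kept. Python 3.11.15, numpy 2.4.6, pandas 2.3.3 and matplotlib 3.10.9 were used.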

Additional observations from a re-analysis of the deposited data

How the results depend on the processing

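Of 110 alternative values for 35 counts, 87 stayed within 1.5 times the count reported and 23 did not. Both H3K4me3 and H3K27ac calls of the 10 genes were the same at a −log10 q of at least 5. With lists of equal length, the members with H3K27ac in cKO only numbered 3 and those in neither list 2, cKO peaks in the windows 15, cKO-only H3K27ac regions 6 and cKO-only pathway genes 8. Restricted to genes with a start in the promoter table, an alternative chosen after seeing the data, 2 were cKO only (Nfkbia and Nfkbie). With either annotated end for every gene, also chosen after seeing the data, 1 gene (Nfkb2) had none and Nfkbie was counted in both, through the neighbouring Slc35b2 start. At 2.5 kb from the start, Relb was in both lists through the Clasrp peak, and 1 gene (Nfkb1) had H3K9ac in cKO only.

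With windows of 50 kb the peaks numbered 1, 3 and 6 for DEK replicates 1 to 3, 21 and 38 for H3K27ac in fl and cKO, 34 and 30 for H3K4me3 and 3 for H3K9ac in fl, and members with a DEK peak were 8. The share of all genes with a DEK peak is given here only for windows of 20 kb. Nothing particular to the 10 genes is therefore read from the 8. With 10 kb the DEK replicate 3 peaks and the members with a DEK peak were 0. At a −log10 q of at least 5 there was 1 DEK peak of replicate 3 at 1 gene (Rel), and 0 H3K9ac peaks in cKO. Leaving out each DEK replicate in turn gave 0 to 2 members, and 0 without replicate 3. An overlap of at least 50% of the shorter peak, and keeping the irregular rows, moved no count by over 1.5 times. No paired analysis was possible because each genotype and mark has 1 library. The depth of each library is unknown, so a place without a peak in the shorter list may be below its detection.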
